A study of Rattus norvegicus with 10 samples.

Results

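Peaks with a low pileup and a high score were examined in 2 deposited lists of N6-methyladenosine (m6A) peaks from primary cardiomyocytes of newborn rats. They were chosen by 2 measured values of each peak: a summit height of at most 15 and a score of 200 to under 3100. The hypertrophic list held 1349 such peaks among 65539, and the quiescent list 3047 among 68440, so 4396 peaks of 133979 were members. The cells were neonatal cardiomyocytes from pups 1 to 3 days old, all kept in M199 medium. Hypertrophic cells received 2% bovine serum and quiescent cells none. An antibody to m6A pulled down RNA of both kinds of cells, and normal IgG, which does not recognise m6A, pulled down RNA of hypertrophic cells. With input RNA of both kinds of cells there were 10 libraries in 5 groups of 2. Each condition is represented by 1 list, called against the IgG control that served for both. The labels do not give a strain or say how many animals were pooled, and isolated heart cells can include cells other than cardiomyocytes. Defining markers of cardiomyocytes could not be checked, because the lists carry positions and no gene names.

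m6A is the most common internal methylation of messenger RNA. The METTL3 and METTL14 complex writes it, FTO and ALKBH5 can remove it, and proteins with a YTH domain bind it and affect splicing, decay and translation of the RNA. In heart muscle cells, METTL3 activity has been tied to hypertrophic growth, the enlargement that serum provokes in cultured cardiomyocytes. In m6A immunoprecipitation, reads from pulled-down fragments pile up around a methylated site. The summit height is the pileup at the highest base of a peak. The peak caller MACS weighs the reads of a peak against those expected from the control, and its score grows as the p-value of that comparison shrinks. The height counts reads at 1 base, whereas the score takes in the reads along the peak, so a low peak can score high when it is wide. Read counts per peak were not analysed here. The same holds for the IgG reads at these places, and their part in the scores was not tested.

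Low peaks reached high scores more often in the quiescent list. Of peaks of height 15 or less, members were 4.71% of 28619 hypertrophic and 8.91% of 34195 quiescent ones. Members made up 2.06% of the hypertrophic and 4.45% of the quiescent list, shares that the rule itself sets. Of all peaks scoring 200 to under 3100 they were 6.76% among hypertrophic and 13.4% among quiescent peaks. The number of members was 2.26 times as large in the quiescent list, while all peaks stood at 1.04 times and all peaks of height 15 or less at 1.19 times. No low peak of either list scored 3100 or more. Because 1 list stands for each condition, these values have no replicate error and no test was made. Intervals beside shares are Wilson 95% intervals. They reflect only the counting error and treat neighbouring peaks as independent.

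Peaks of equal height had higher scores in the quiescent list. At a height of 10, hypertrophic peaks had a median score of 84.1 and quiescent peaks one of 101. At a height of 15 the medians were 126 and 156, and 18.3% of 1961 hypertrophic against 34.1% of 1942 quiescent peaks were inside the score bounds. At every height from 5 to 30 the quiescent median was the higher one. Scores belong to their own list, and whether the scales are comparable was not tested. The plot of score by summit height shows both curves.

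**Figure D1:**
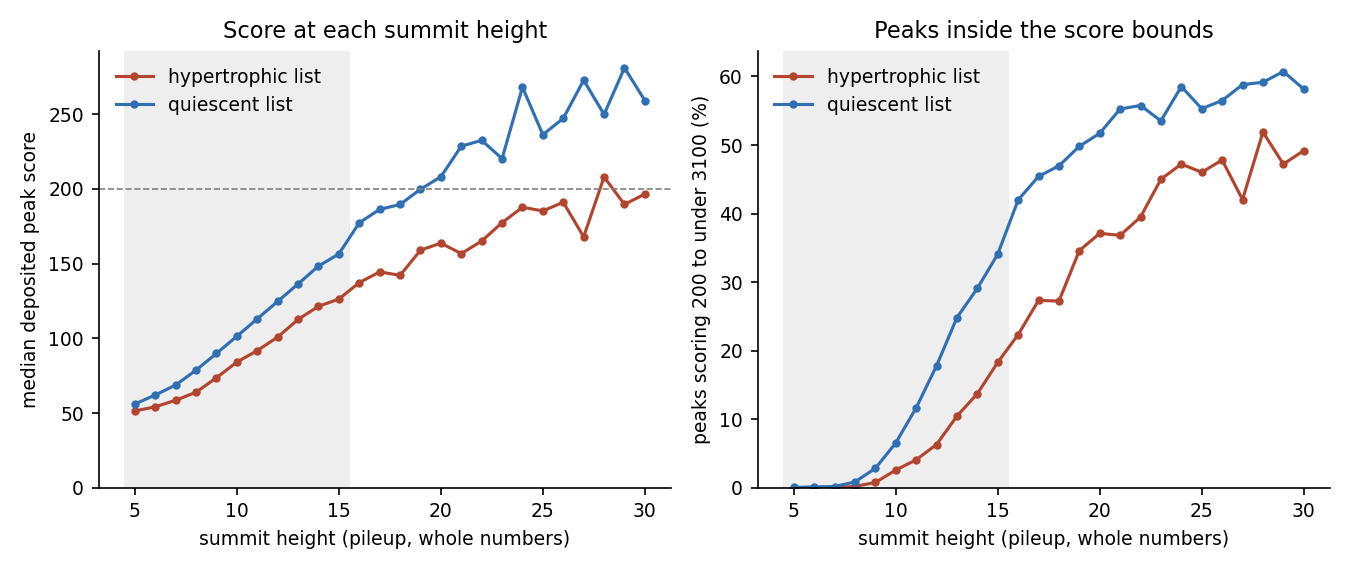
Left: median deposited score of all peaks at each summit height, with the lower score bound of 200 dashed. Right: share of peaks at each height that scored 200 to under 3100; the grey band marks heights of at most 15, the quiescent curve runs above the hypertrophic one, and at a height of 15 the shares were 34.1% and 18.3%.

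Members gathered at the edges of the rule. The median height was 13 in both lists, with quartiles of 12 and 15 for hypertrophic and 12 and 14 for quiescent members. The lowest heights were 7 and 5. The median score of hypertrophic members was 248 and that of quiescent members 258. Scores under 300 were held by 76.2% and 67.8%. Only 10 hypertrophic and 59 quiescent members reached 600. Peaks just outside the height bound were much like those just inside. Hypertrophic peaks at a height of 16 numbered 391, with a median width of 473 bp and a median score of 262, beside 359 at a height of 15, with 500 bp and 252. In the quiescent list there were 747 peaks at a height of 16, with 467 bp and a score of 291, and 662 at a height of 15, with 465.5 bp and 281. Across the score bound, low hypertrophic peaks scoring 190 to under 200 numbered 254 and those from 200 to under 210 numbered 185. Among quiescent peaks these counts were 440 and 391.

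A smaller share of quiescent than of hypertrophic members had a counterpart in the other condition. A common stretch of 1 bp with any peak of the opposite condition was enough to count a peak as shared, and such a counterpart is called its partner. Of hypertrophic members, 1306 of 1349 (96.8%, interval 95.7 to 97.6%) overlapped a quiescent peak, against 74.2% of all hypertrophic peaks. Of quiescent members, 2224 of 3047 (73.0%, interval 71.4 to 74.5%) overlapped a hypertrophic peak, against 71.0% of all quiescent peaks. Of taller peaks of the same scores, 98.0% of hypertrophic and 96.2% of quiescent ones were shared. Hypertrophic members were shared about as often as taller peaks in the same class of scores. From 200 to under 250 the shares were 95.1% of members and 94.2% of taller peaks. From 250 to under 300 they were 98.2% and 96.4%, and from 300 to under 400 they were 99.2% and 98.2%. From 400 to under 600 members were the lower, with 98.5% against 99.2%. For quiescent members the share was close to that of the whole list and below that of the taller peaks. It was above that of low quiescent peaks scoring under 200, of which 51.9% were shared. Among low hypertrophic peaks scoring under 200 the share was 57.8%. These low peaks were not matched to the members by height. There were 43 hypertrophic and 823 quiescent members without a partner, a ratio of 19.1, while taller peaks without one, 378 and 738, stood at 1.95. The first ratio includes the 2.26 times larger number of quiescent members. As shares, 3.19% of hypertrophic and 27.0% of quiescent members had no partner, against 25.8% and 29.0% of all peaks. By this overlap of 1 bp, it is thus the hypertrophic share that lay far from its whole list. That depends on the criterion. With summits within 100 bp, 62.1% of hypertrophic members were shared, against 65.2% of all hypertrophic peaks. For quiescent members it was 52.6%, against 62.4% of all quiescent peaks, so there the quiescent share lay farther from its list.

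Among high-scoring quiescent peaks, the shared fraction climbed with summit height up to about 25, while in the hypertrophic list it hardly varied. At a height of 8, 15 of 40 quiescent members were shared (37.5%, interval 24.2 to 53.0%). The share was 60.1% of 228 at a height of 10, 72.4% of 464 at 12 and 80.8% of 662 at 15. Past the rule's bound it went on to 85.9% at 16, 93.0% at 20 and 98.6% at 30. Hypertrophic peaks of the same scores were shared at 97.8% at a height of 10, 96.7% at 15, 96.2% at 20 and 98.2% at 30. From 25 on the lists were alike, with 96.6% of hypertrophic and 97.5% of quiescent peaks shared at that height.

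**Figure D2:**
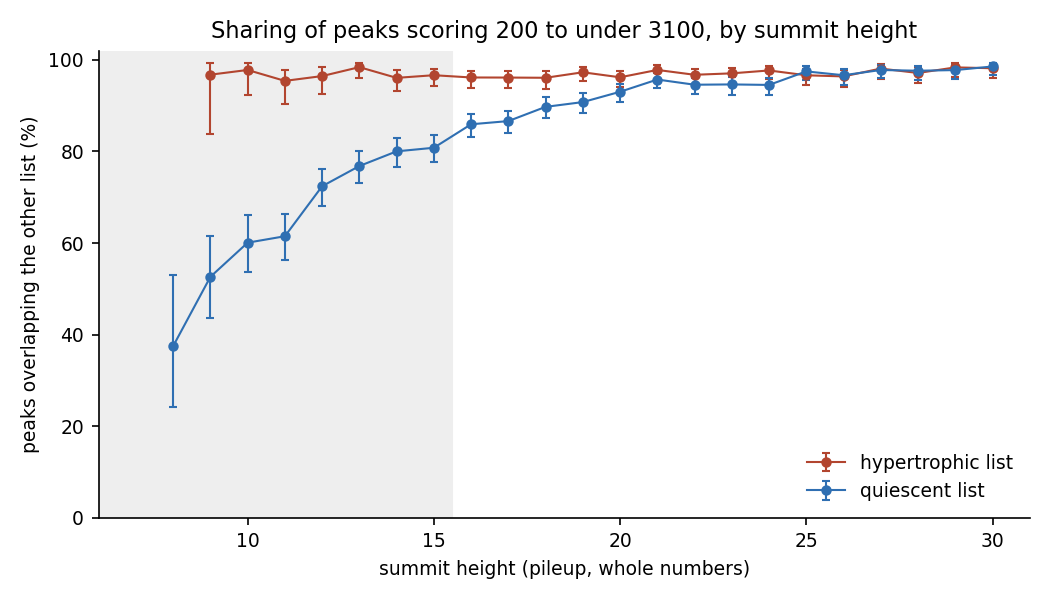
Share of peaks scoring 200 to under 3100 that overlapped a peak of the other list, at each summit height with at least 20 such peaks; bars are Wilson 95% intervals and the grey band marks heights of at most 15. The hypertrophic points stay above 95%, and the quiescent points climb from 37.5% at a height of 8 to 98.6% at 30.

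A higher score did not bring the quiescent members up to the hypertrophic ones. From 200 to under 250, 71.5% of 1402 quiescent members were shared, against 93.9% of 2810 taller quiescent peaks. From 400 to under 600 the shares were 78.9% of 275 and 96.3% of 4137. From 600 upwards they were 72.9% of 59 members (interval 60.4 to 82.6%) and 98.7% of 7186. In the hypertrophic list the members' share was 95.1% of 694 from 200 to under 250, and 99.2% of 244 from 300 to under 400. All 10 hypertrophic members scoring 600 or more were shared. Within 1 class of scores the height again set the quiescent shares apart. From 200 to under 300, 54.6% of 339 quiescent peaks of height 5 to 10 were shared, then 66.6% of 608 of height 11 to 12 and 79.6% of 1120 of height 13 to 15. The hypertrophic shares in those classes were 97.3% of 113, 95.6% of 248 and 96.1% of 667.

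Members were wider than low peaks scoring under 200. Hypertrophic members had a median width of 537 bp (quartiles 437 and 662 bp), and quiescent members one of 499 bp (quartiles 408 and 625 bp). Low peaks scoring under 200 had medians of 258 and 257 bp. These were not matched by height, since their median heights were 10 and 9 against 13 for members. Taller peaks of the same score range had medians of 556 and 569 bp and a longer upper tail, but their scores were higher. Within each class of scores members were the wider ones. From 200 to under 250 the medians were 479.5 against 401 bp (hypertrophic) and 430 against 404 bp (quiescent). From 400 to under 600 they were 859 against 568 bp and 734 against 561 bp. Over 1000 bp wide were 3.56% of hypertrophic and 3.08% of quiescent members, against 16.9% and 16.4% of the taller peaks. The shortest members spanned 96 and 94 bp and the widest 2964 and 3461 bp. Hypertrophic members covered 771 kb and quiescent members 1640 kb, which was 2.57% and 5.21% of the sequence under all peaks.

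Among low peaks, the fraction with a high score climbed steeply with width. In the hypertrophic list 0.0795% of 12571 low peaks under 250 bp were members. The share was 8.57% of 4913 from 350 to under 500 bp, 37.8% of 1466 from 500 to under 700 bp and 80.0% of 60 from 1000 bp. The quiescent list gave 0.512% of 14653, 18.2% of 6297, 50.2% of 2087 and 87.0% of 108 in these classes. Score and width come from the same call, so this is a description of the rule's outcome. Within the members, height and width ran opposite ways. Quiescent members of height 9 had a median width of 592.5 bp and those of height 15 one of 465.5 bp; in the hypertrophic list the medians were 737 and 500 bp.

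**Figure D3:**
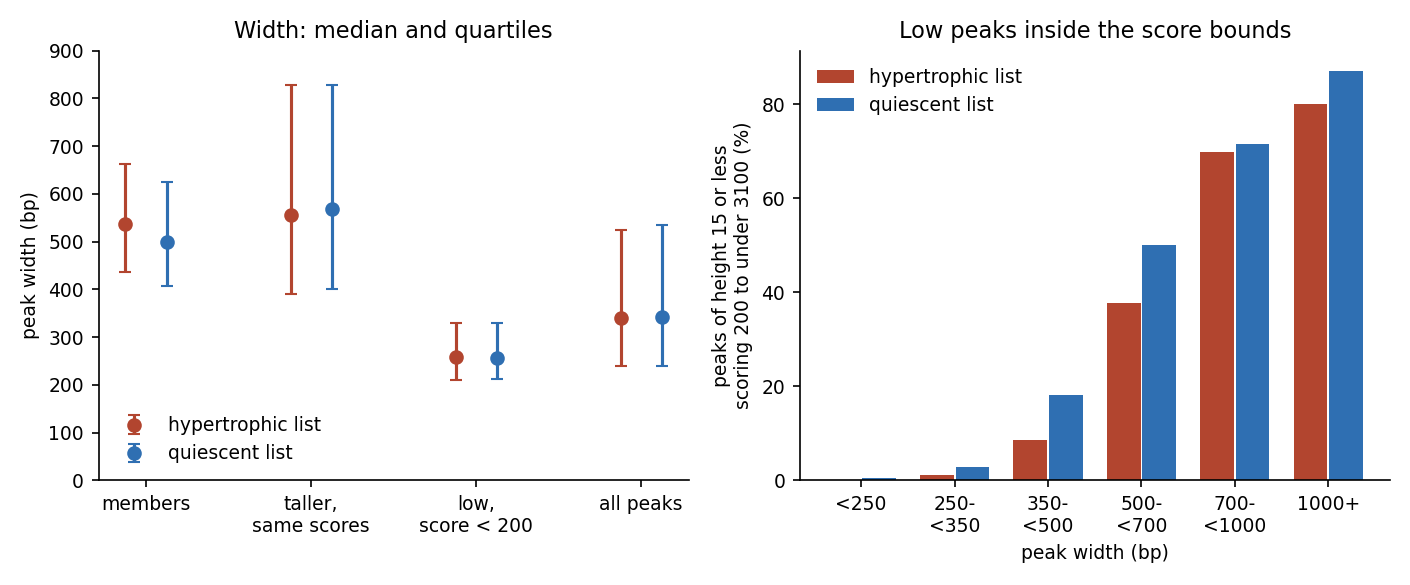
Left: peak width as median (point) and quartiles (bars) for the low, high-scoring peaks (members), for taller peaks of the same scores, for low peaks scoring under 200 and for all peaks. Right: share of peaks of height 15 or less that scored 200 to under 3100 in each class of width; it reaches 80.0% (hypertrophic) and 87.0% (quiescent) at 1000 bp and above.

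Wide quiescent members were shared no more often than narrow ones, although a wider peak has more sequence to overlap. Of quiescent members under 250 bp, 62 of 75 were shared (82.7%, interval 72.6 to 89.6%). From 500 to under 700 bp the share was 68.5% of 1047 (interval 65.6 to 71.2%), and from 1000 bp it was 66.0% of 94 (interval 55.9 to 74.7%). The classes of width were not matched by height. Quiescent members of height 9 had a median width of 592.5 bp, and 52.6% were shared. At a height of 15 these values were 465.5 bp and 80.8%. Hypertrophic members were shared at 94.8% of 421 from 350 to under 500 bp and 98.0% of 554 from 500 to under 700 bp.

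Partners were sorted by their own height and score. Where several peaks overlapped, the one with the longest overlap was taken as partner. Of the 1306 shared hypertrophic members, 672 (51.5%) met a quiescent peak of the same score range that was taller than 15, and 279 (21.4%) met one that was itself a low, high-scoring peak. A low partner scoring under 200 stood opposite 333 (25.5%), and 18 met a quiescent peak scoring 3100 or more. Of the 2224 shared quiescent members, 1300 (58.5%) met a low hypertrophic peak scoring under 200. Taller hypertrophic peaks of the same score range were partners of 573 (25.8%), low, high-scoring ones of 277 (12.5%), and taller ones scoring under 200 of 73. Only 1 met a hypertrophic peak at 3100 or more. Over all shared hypertrophic and quiescent peaks, the partner was a taller one of the same score range for 39.6% and 38.1%. It was a low one scoring under 200 for 32.6% and 31.7%, and a low, high-scoring one for 4.75% and 2.78%.

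**Figure D4:**
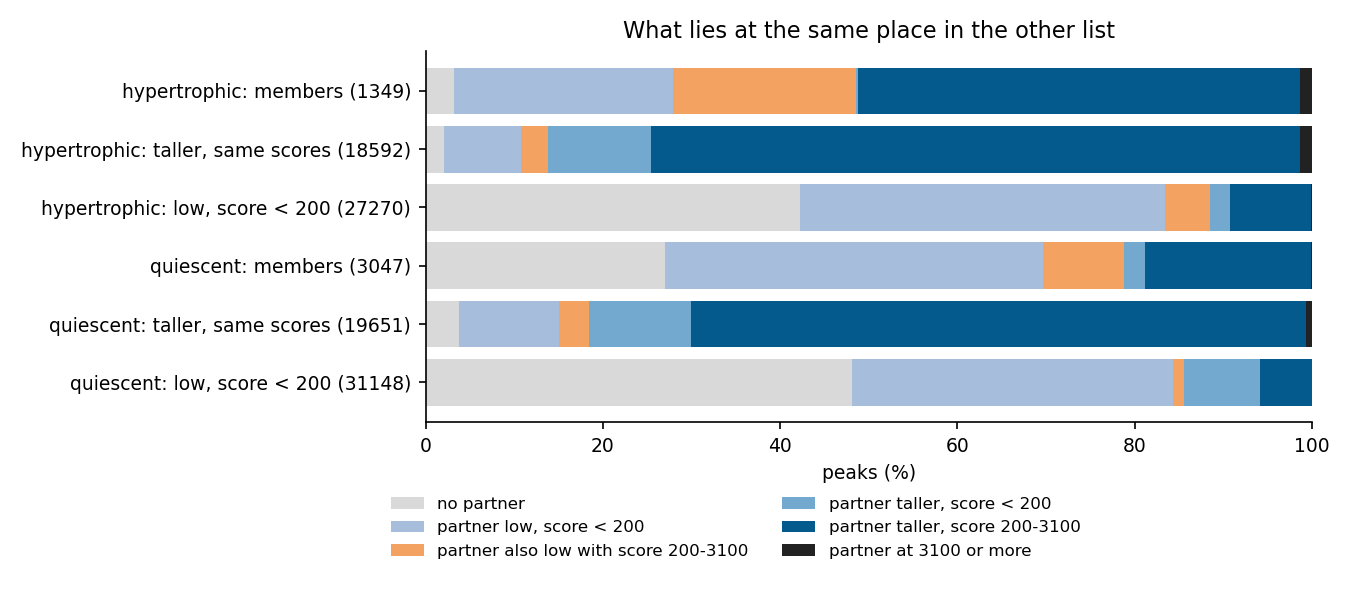
For the low, high-scoring peaks (members) of each list, for taller peaks of the same scores and for low peaks scoring under 200, the share with no overlapping peak in the other list and the kind of partner otherwise; numbers of peaks are in brackets. No partner was found for 3.19% of hypertrophic and 27.0% of quiescent members.

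In side-by-side values, partners of hypertrophic members had a median height of 16 and a median score of 413 in the quiescent list, where the members themselves stood at 13 and 248. Partners of quiescent members had a median height of 12 and a median score of 158 in the hypertrophic list, beside 13 and 258. A member is low by choice, so a difference from its partner is in part set by that choice, and no test was made. The partner was the taller one for 62.2% of shared hypertrophic members, against 32.6% of all shared hypertrophic peaks. For quiescent members it was 39.3%, against 62.9% of all shared quiescent peaks. A partner with the higher score was found for 66.8% of shared hypertrophic members (53.8% of all shared hypertrophic peaks) and 25.1% of shared quiescent members (46.8% of all). Low peaks scoring under 200, also low by choice, had a taller partner in 48.0% of hypertrophic and 71.0% of quiescent cases. The 2 lists share their control, so these shares are not independent of each other.

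Summits of members met less exactly than those of other shared peaks. A summit of the other list lay within 100 bp for 838 hypertrophic members (62.1%, against 65.2% of all hypertrophic peaks) and for 1602 quiescent members (52.6%, against 62.4%). Counted over shared peaks, these were 64.2% and 72.0%, while taller shared peaks of the same scores reached 89.1% and 87.6%. The median distance to the nearest summit of the other list was 54 bp for shared hypertrophic and 43 bp for shared quiescent members, and 11 and 13 bp for the taller peaks. Several partners were overlapped by 62 shared hypertrophic and 112 shared quiescent members (4.75% and 5.04%), against 2.97% and 2.98% of the taller shared peaks.

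Some places were low and high-scoring in both conditions. There were 279 hypertrophic members whose partner was a quiescent member, with 277 such quiescent peaks. This was 20.7% of all hypertrophic and 9.09% of all quiescent members, shared or not. Counted over shared peaks only, 21.4% of hypertrophic members had a quiescent member as partner. The share was 4.75% of all 48600 shared hypertrophic peaks and 8.77% of shared low ones scoring under 200. In the quiescent list these shares were 12.5%, 2.78% and 2.43%. At these places the median height was 13 in both lists, the median score was 252 (hypertrophic) and 304 (quiescent), and the median width 552 and 562 bp. Summits lay a median of 64 bp apart, and 168 of the 279 were within 100 bp.

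The 5 highest-scoring hypertrophic members each overlapped a quiescent peak. The highest spanned 2964 bp of chromosome 13, from 106662057 to 106665020, and scored 1504 at a height of 15. Its quiescent partner covered nearly the same bases, scored 3100 and reached a height of 42. One on chromosome 7 from 116741043 to 116742617 scored 1204 at a height of 14. Its partner, of 1617 bp, scored 3100 at a height of 27. At both sites the lists marked almost the same span, with the lower pileup and score in the hypertrophic list.

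Other top members lay where the lists cut the sequence differently. On chromosome 5 a hypertrophic member from 80538806 to 80540446, of score 1192 and height 14, overlapped 3 quiescent peaks. The one with the longest overlap scored 204 at a height of 7 and was itself a member. On chromosome 6 a hypertrophic member from 2879356 to 2881572, of score 1181 and height 14, lay 30 bp from its neighbour. It belonged to a run of 4 hypertrophic members from 2879356 to 2884776, of heights 10 to 14. A quiescent peak of 5414 bp from 2877339 to 2882752, of score 3100 and height 19, was the partner of the first of them. The fifth, on chromosome 3 from 42303122 to 42304104, scored 913 at a height of 13. Its quiescent partner, of 977 bp against 983 bp, scored 740 at a height of 10 and was a member too.

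Of the 5 highest-scoring quiescent members, 3 had no hypertrophic counterpart. The highest of all spanned 3461 bp of chromosome 8, from 81406558 to 81410018, and scored 2134 at a height of 15. It overlapped 4 hypertrophic peaks. The longest of these overlaps was with a peak of 1575 bp that scored 918 at a height of 16, just outside the rule. The other 3 were members of heights 10, 10 and 15 with scores from 212 to 217. A peak on chromosome 10 from 89249590 to 89251627 scored 1839 at a height of 13, and its hypertrophic partner of 2030 bp scored 2285 at a height of 20. Here the hypertrophic peak was the taller and higher-scoring one.

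The high-scoring quiescent members without a partner were broad and low. One on chromosome 4 from 30984765 to 30987309 scored 1439 at a height of 13 over 2545 bp, with 7745 bp to the nearest hypertrophic peak. Another on chromosome 15 from 60390501 to 60392105 scored 1176 at a height of 14, with 25640 bp to the nearest hypertrophic peak. On chromosome 18 a member from 81751356 to 81753550 scored 1096 at a height of 14, with a quiescent neighbour 16 bp away and 37347 bp to a hypertrophic peak. A member on chromosome 1 from 119065503 to 119066936 scored 933 at a height of 15, with a hypertrophic peak 952 bp off. The fifth, on chromosome 20 from 34874954 to 34876314, scored 885 at a height of 11. It stood alone, 93803 bp from the next quiescent and 25229 bp from the next hypertrophic peak.

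The 5 highest-scoring hypertrophic members without a partner reached lower scores, and each had a hypertrophic peak close by. The top one, on chromosome 4 from 121602158 to 121602946, scored 481 at a height of 15. It lay 93 bp from a hypertrophic and 64 bp from a quiescent peak. One on chromosome 3 from 104803282 to 104803927 scored 330 at a height of 15, 165 bp from a quiescent peak. The next 3, on chromosomes 20, 5 and 1, scored from 294 to 310, with 287, 275 and 7 bp to a neighbour in their own list.

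As a group, the 823 quiescent members without a partner lay farther from hypertrophic peaks than other unshared quiescent peaks did. The nearest hypertrophic peak was a median of 16324 bp away (quartiles 5253 and 39920.5 bp), and at most 929531 bp. For all quiescent peaks without a partner the median was 9736 bp. It was 11529 bp for taller peaks of the same scores and 10815 bp for low peaks scoring under 200. Counted over all 3047 quiescent members, 507 (16.6%) had no hypertrophic peak within 10 kb, and 160 (5.25%) none within 50 kb. Taller quiescent peaks of the same scores gave 2.04% and 0.534%, and all quiescent peaks 14.3% and 4.56%. Among hypertrophic members only 16 (1.19%) had no quiescent peak within 10 kb, and 0 of 1349 had none within 50 kb, which allows a share of up to 0.284% by the Wilson interval. Over all hypertrophic peaks these shares were 10.6% and 1.93%, and over taller ones of the same score range 0.769% and 0.113%. The 43 without a partner lay a median of 6696 bp from the nearest quiescent peak and at most 35370 bp away.

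Quiescent members with and without a partner had nearly the same scores. The medians were 260.6 with a partner and 252 without. Heights were 13 and 12, and widths 491 and 525 bp. Distances to the next peak of the own list were longer without a partner, with medians of 8871 against 6026 bp. In the hypertrophic list the order was the other way, 2281 bp without and 5748.5 bp with a partner, over 43 and 1306 members. Hypertrophic members without a partner had a median score of 221 and those with one a median of 249.

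The lowest members show how small a pileup could reach a score of 200. In the hypertrophic list a single member had a height of 7, on chromosome 2 from 4449438 to 4450229, which scored 240 over 792 bp. Its quiescent partner had a height of 5 and a score of 122. In the quiescent list a single member had a height of 5, on chromosome 8 from 69131477 to 69132315, which scored 250 over 839 bp and had no partner. Of the 5 quiescent members of height 6, 1 was shared, and the 2 with the highest scores were on chromosome 9 from 6665598 to 6666485 (score 341) and on chromosome X from 151773427 to 151774522 (score 271), both without a partner. The latter lay 191218 bp from any hypertrophic peak. Of the 14 quiescent members of height 5 to 7, 3 were shared.

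A few members met very tall partners. On chromosome 1 a hypertrophic member from 61144230 to 61145338, of height 13 and score 281, overlapped a quiescent peak of 2294 bp with a height of 99 and a score of 3100. Their nearest summits were 1473 bp apart, and a hypertrophic neighbour lay 1 bp away. On chromosome 8 a hypertrophic member from 120139091 to 120139589 reached a height of 15 and a score of 227. Its quiescent partner reached 85 and 2692, with summits 27 bp apart. The reverse occurred on chromosome 4, where a quiescent member from 121600983 to 121601458, of height 14 and score 264, met a hypertrophic peak of height 87 and score 3100, with summits 49 bp apart. On chromosome 18 a quiescent member from 74883191 to 74883932, of height 14 and score 518, met one of height 78 and score 2361, with summits 12 bp apart. At these last 3 places both lists had a summit at nearly the same base, with pileups several-fold apart. The tallest partner of a quiescent member, on chromosome X from 69683330 to 69685110, had a height of 115 and a score of 134, but its nearest summit lay 878 bp away.

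By the median gap, members stood farther from other peaks than did taller peaks of the same scores, but a very close neighbour was more common beside members. The median gap to the next peak of the same list was 5703 bp for hypertrophic members, against 3758.5 bp for taller peaks, 6133.5 bp for low peaks scoring under 200 and 5055 bp for all peaks. For quiescent members it was 6766 bp, against 4110, 6501.5 and 5330 bp. No other peak of the list lay within 50 kb of 113 hypertrophic (8.38%) and 231 quiescent members (7.58%), beside 7.48% of all peaks in both lists. A neighbour within 100 bp was found for 9.49% of hypertrophic members (interval 8.04 to 11.2%), beside 6.67% of taller peaks of the same scores, 5.07% of low peaks scoring under 200 and 5.34% of all hypertrophic peaks. For quiescent peaks these shares were 7.94% (interval 7.03 to 8.96%), 6.75%, 6.38% and 6.21%.

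The nearest neighbour was usually low as well. It had a height of 15 or less for 55.7% of hypertrophic and 60.1% of quiescent members, against 43.1% and 49.4% of all peaks. For taller peaks of the same scores the shares were 37.0% and 43.6%. A neighbour taller than 45 stood beside 10.7% and 8.83% of members and beside 26.2% and 22.3% of the taller peaks. Low peaks scoring under 200 lay between members and taller peaks and came near the members, with 52.4% and 58.1% for low neighbours.

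The most isolated hypertrophic member, on chromosome X from 67529329 to 67529822, scored 216 at a height of 12. It stood 794314 bp from the next hypertrophic peak but 15676 bp from a quiescent one. The second, on chromosome 15 from 52076200 to 52077080, scored 534 at a height of 15. Its quiescent partner scored 2205 at a height of 29, with summits 58 bp apart. In the quiescent list the most isolated member lay on chromosome 4 from 97808429 to 97809271, 659570 bp from the next quiescent peak. It scored 568 at a height of 15, and its hypertrophic partner 64.4 at a height of 8. Another, on chromosome 10 from 26072805 to 26072931, was only 127 bp wide and scored 200 at a height of 15. Its hypertrophic partner had the same width, a height of 14 and a score of 157.

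Few members lay in runs, but members made up only 2.06% and 4.45% of the lists. No count of runs over other sets of peaks is given here, so the low shares are not read as a trait of members. Joined when within 10 kb of each other, 68 hypertrophic members (5.04%) fell into 32 runs of 2 or more, and 289 quiescent members (9.48%) into 139. Runs of 3 or more numbered 3 and 10, and the longest held 4 members in either list. The longer quiescent list of members makes runs more likely, so the shares are not a like-for-like comparison. The longest quiescent run spanned 18392 bp on chromosome 1 from 228193453 to 228211844. Its 4 members scored from 220 to 494 at heights of 11 to 15, and 1 was shared. The longest hypertrophic run was that on chromosome 6 described above, and all 4 of its members were shared.

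Low, high-scoring peaks occurred on all 21 chromosomes of the lists, 1 to 20 and X. In the hypertrophic list their share of a chromosome's peaks ran from 1.35% on X to 2.58% on chromosome 12, with a median of 2.08%. In the quiescent list it ran from 3.49% on chromosome 15 to 6.34% on chromosome 12 (138 of 2176 peaks), with a median of 4.34%. Chromosomes 20, 17 and 16 followed chromosome 12, with 5.43%, 5.29% and 5.23%. Counted among peaks of the score range instead, chromosome 12 was not the highest in the hypertrophic list, with 7.81% against 7.94% on both chromosomes 3 and 11. In that count it stood level with chromosome 17 among quiescent peaks, with 16.5% on each. On every chromosome the quiescent share of all peaks was above the hypertrophic one. All hypertrophic intervals overlapped one another, as the plot by chromosome shows. Among quiescent shares, the interval of chromosome 12 (5.39 to 7.44%) lay above that of chromosome 2 (3.91 to 5.01%), whose share was near the median. Of quiescent members, 64.0% on chromosome 11 to 80.0% on X were shared, and of hypertrophic members 88.0% on X, where there were 25, to 100% on chromosomes 9, 12, 13 and 15.

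**Figure D5:**
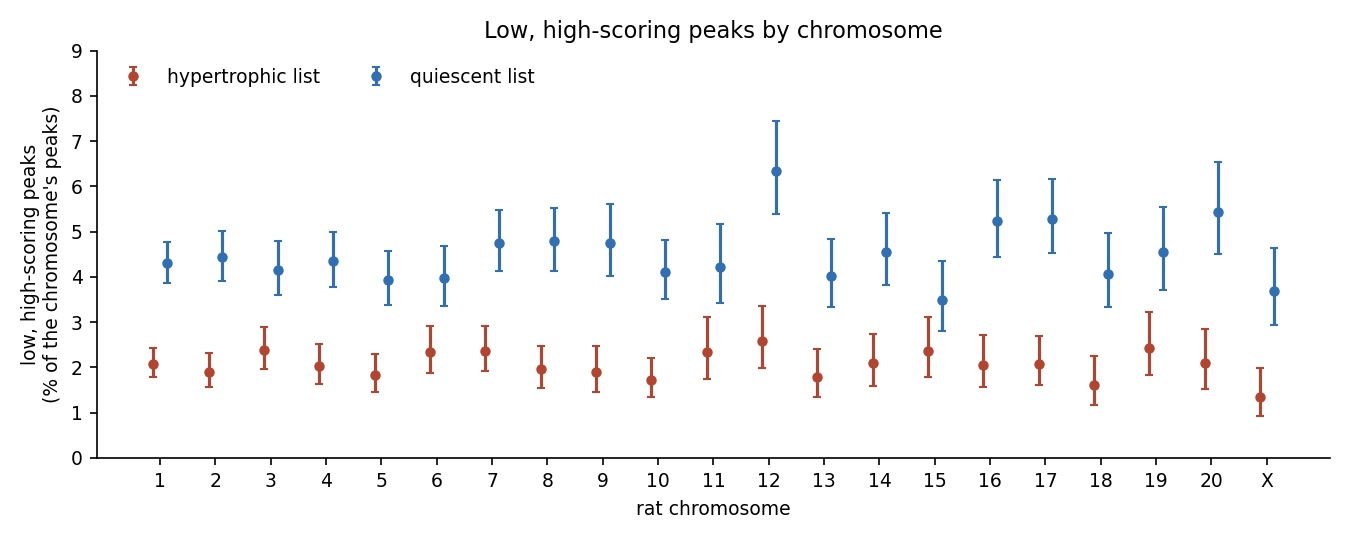
Low, high-scoring peaks as a share of all peaks of each chromosome, with Wilson 95% intervals. Every quiescent point lies above the hypertrophic point of the same chromosome.

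Members were also counted in windows of 1 Mb. They lay in 930 of the 2706 windows with a hypertrophic peak and in 1512 of the 2725 with a quiescent peak. A single member was found in 625 of the occupied hypertrophic and 721 of the occupied quiescent windows. At least 5 members lay in 7 hypertrophic and 84 quiescent windows. Such counts depend on the number of members, which was 2.26 times as large in the quiescent list. They are not a like-for-like comparison, and whether members cluster was not tested. The fullest quiescent window, on chromosome 12 from 38000001 to 39000000, held 13 members among 73 peaks, of which 5 had no partner. The hypertrophic list had 51 peaks and 2 members there. The window next to it, named here after its values were seen, from 37000001 to 38000000, held 9 quiescent members, 5 of them without a partner, and 2 hypertrophic members. On chromosome 16 from 27000001 to 28000000 there were 11 quiescent members among 175 peaks, beside 2 hypertrophic members among 95. On chromosome 1, the window from 263000001 to 264000000 held 9 among 88, beside 2 hypertrophic members among 94.

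The fullest hypertrophic windows held 6 members each, and all of these were shared. They lay on chromosome 3 from 160000001 to 161000000, chromosome 14 from 6000001 to 7000000, chromosome 19 from 47000001 to 48000000 and chromosome 6 from 23000001 to 24000000. The quiescent list had 6, 5, 6 and 1 members in these windows. At the first 3 of these, the lists held about equal numbers of low, high-scoring peaks, and at the last they did not.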

How the data were processed

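MeRIP-seq libraries of rat cardiomyocytes were processed by the submitters with CASAVA 1.8, TopHat and MACS 1.4 on build rn4, per the submitters' processing notes, which give no parameters. The authors deposited, per condition, a peak list with a score per peak and a summit list whose signal is the pileup height at the summit. The sources used here do not give how heights were scaled, how many reads were mapped or whether replicates were pooled. The height is the only measure of depth. Lists were matched row by row by peak name, and coordinates are counted from 1. No value column was left unused.

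Members and groups of comparison were chosen with earlier results of these data known. Overlap (at least 1 bp), gaps between peak edges, runs (10 kb), 1 Mb windows and Wilson 95% intervals were computed with Python 3.11.15, numpy 2.4.6, pandas 2.3.3 and scipy 1.17.1. The overlap code was checked on simulated lists and against bedtools 2.31.1. Peaks named are, per list, the 5 highest-scoring members, the 5 highest-scoring without a partner, the 5 with the tallest partners, the 5 sites low and high-scoring in both lists with the highest summed scores, and the 3 widest, most isolated and lowest ones, with the 3 fullest windows; a selection is printed. Alternatives are given in the closing section. Gene annotation and sequence of build rn4 were not used here, and neither were the input libraries.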

Additional observations from a re-analysis of the deposited data

How the results depend on the processing

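Under 36 alternatives for 10 results, 11 values stayed within the main interval (or 1.5 times the main count) and 25 moved, mostly because the rule itself was changed. Under each changed bound of height or score there were more quiescent than hypertrophic members. The settings for overlap, summits and joining cannot change these counts. Each setting that could change the shared fraction left it smaller among quiescent members. With heights of at most 12 there were 431 hypertrophic and 1208 quiescent members, with at most 18 there were 2591 and 5223, and with scores from 300 there were 321 and 980. The quiescent shared fraction was then 63.3%, 79.0% and 75.7%, and the hypertrophic one moved to 99.1% with scores from 300. With summits within 100 bp as the criterion, 62.1% and 52.6% were shared. Taking the lowest 10% of heights in each score class of a list, chosen after seeing the data, gave 98.6% and 76.7%. The numbers of peaks taken there are set by the size of each list. Median widths were 611 and 544 bp (height at most 12), 509 and 489 bp (at most 18), and 676 and 634.5 bp (scores from 300), where the hypertrophic median gap was 7064 bp. Joining within 2 kb put 2.52% and 4.36% of members in runs, and within 50 kb 12.9% and 23.0%.

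No paired analysis was possible because each condition has 1 list. Replicates could not be left out for the same reason. Differences between conditions and between how the hypertrophic IgG control suits each condition cannot be told apart. At the lowest heights few members remain, and their intervals are wide.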
